A study of Homo sapiens with 3 samples.

Results

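The Polycomb repressive complex PRC2 places methyl groups on lysine 27 of histone H3, the mark of Polycomb silencing. EZH2, or its close relative EZH1, carries the methyltransferase activity, and it needs SUZ12 and EED to work. RBBP4 is a histone-binding protein of the same core that also serves other chromatin complexes. Accessory subunits steer the complex to DNA: MTF2, PHF1 and PHF19 are the Polycomb-like proteins of one form of PRC2, and JARID2 and AEBP2 belong to another. SOX4, a transcription factor of the high-mobility-group family, was described in mouse mammary cells as an activator of Ezh2 during the epithelial-to-mesenchymal transition.

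The 10 genes EZH2, EZH1, SUZ12, EED, RBBP4, MTF2, PHF1, PHF19, JARID2 and AEBP2 were chosen by their place in PRC2, as core and accessory genes, out of 20037 protein-coding genes, and EZH2 and MTF2 were selected on the scores and positions of their SOX4 summits. The values that follow are therefore a description and carry no test. For each gene, every SOX4 summit inside it or within 50 kb of its ends was taken, which gave 11 of the 7511 summits. SOX4 was profiled by chromatin immunoprecipitation and sequencing (ChIP-seq) in cells of the established line BT549 (human triple-negative breast cancer), listed at passage 5. The 3 libraries form 1 group, named replicates 1, 2 and 3, and were made with an Abcam SOX4 antibody after fixation with DSG and formaldehyde. The titles carry the tag UT, which the labels do not explain, and name no second condition and no separate cultures, so the spread between libraries may be technical. An input or IgG library was not analysed here, and neither RNA nor the histone mark was measured.

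Each library came as a list of summits 1 bp wide, with 1368, 1713 and 4430 summits in replicates 1, 2 and 3. The score of a summit is the authors' −log10 of a p or q value, used here only to rank summits within a list. Its median was 6.12, 5.57 and 5.58 in the 3 lists. The read depth is unknown. Positions are 1-based on GRCh38. Neighbouring summits no more than 200 bp apart were taken as 1 region, whichever library they came from, and a region was called reproducible when it held summits of at least 2 libraries.

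MTF2 carried a region of all 3 libraries just upstream of its transcription start, with the highest score of these sites in replicates 2 and 3. EZH2 had a weaker region of 2 libraries, farther upstream. EED and PHF1 each had a summit of 1 library near the start of the gene, and a region near PHF19, which scored above the MTF2 region in replicate 1, lay at the end of another gene. EZH1, SUZ12, RBBP4, JARID2 and AEBP2 had no summit within 50 kb. Inside the gene or within 5 kb of it, a summit of 1 or more libraries was found for 4 of the 10 genes, compared with 20.4% of all coding genes. A reproducible region was found at 2 of the 10, against 3.47% of all coding genes, and a summit of each library at 1 of the 10, against 1.5%. With so few genes, chosen with results known, these shares describe the list only.

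Promoter sequence is shown as the 250 bases upstream of the listed start of 4 genes, 5′ to 3′ on the strand of the gene, from RefSeq on GRCh38.p14. MTF2 is shown because all 3 summits fall inside it, and SUZ12 as a core gene with no summit. EZH2 and EED are shown as core genes with a summit 150 to 197 bp outside the promoter window. PHF1, an accessory gene with a summit 46 bp outside its window, is not shown. The bases under the EZH2, EED and PHF1 summits were not read here. The printed sequences lie at chr1:93079033-93079282 on the plus strand (MTF2), chr7:148884292-148884541 on the minus strand (EZH2), chr11:86244503-86244752 on the plus strand (EED) and chr17:31936757-31937006 on the plus strand (SUZ12). Capitals mark matches, on either strand, to 3 short motifs: the SOX core (ACAAAG, with AACAAAG as its longer form, or ACAATG), an E2F site (TTTCCCGC, TTTGGCGC or TTTGGCGG) and the NFY box CCAAT. In MTF2 the capitals are a SOX core read on the other strand, in EZH2 and EED they are NFY boxes, and in SUZ12 they are, in order, a SOX core, an E2F site and an NFY box.
MTF2: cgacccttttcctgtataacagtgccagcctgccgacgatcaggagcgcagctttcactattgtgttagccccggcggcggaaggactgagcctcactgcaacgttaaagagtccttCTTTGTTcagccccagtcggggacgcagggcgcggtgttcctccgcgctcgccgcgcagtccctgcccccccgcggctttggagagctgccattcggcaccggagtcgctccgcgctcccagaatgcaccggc
EZH2: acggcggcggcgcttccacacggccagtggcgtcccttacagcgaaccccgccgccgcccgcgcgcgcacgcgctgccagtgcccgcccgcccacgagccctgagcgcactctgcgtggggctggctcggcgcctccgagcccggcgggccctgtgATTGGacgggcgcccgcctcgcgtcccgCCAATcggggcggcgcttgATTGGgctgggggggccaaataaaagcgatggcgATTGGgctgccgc
EED: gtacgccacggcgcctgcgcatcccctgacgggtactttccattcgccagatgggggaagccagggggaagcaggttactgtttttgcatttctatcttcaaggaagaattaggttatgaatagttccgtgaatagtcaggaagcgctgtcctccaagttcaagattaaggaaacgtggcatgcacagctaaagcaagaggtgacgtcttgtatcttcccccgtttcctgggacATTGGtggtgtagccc
SUZ12: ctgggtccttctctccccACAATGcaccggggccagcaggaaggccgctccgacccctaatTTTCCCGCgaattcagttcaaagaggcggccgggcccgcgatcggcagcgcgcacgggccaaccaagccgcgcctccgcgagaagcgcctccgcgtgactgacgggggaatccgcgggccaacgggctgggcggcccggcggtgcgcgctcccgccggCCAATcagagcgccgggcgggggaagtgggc

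MTF2 encodes a Polycomb-like protein that binds unmethylated CpG-rich DNA and recruits PRC2 to it. The gene lies on chromosome 1 from 93079283 to 93139076. In replicates 1, 2 and 3 its summits were at 93079237, 93079175 and 93079263, which is 46, 108 and 20 bp upstream of the start. All 3 therefore fell inside the printed sequence, between the SOX core and the start of the gene. The scores were 22.3, 20.9 and 11.7. They ranked 90th of 1368, 101st of 1713 and 209th of 4430, the top 6.58%, 5.90% and 4.72% of the 3 lists. The libraries thus placed this site at nearly the same height in their own lists, although replicate 3 gave it a lower score.

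The MTF2 site was then set beside the other summits at gene starts. Starts were used for 15843 of the 20037 coding genes, with none on chromosome 8. Among summits within 1 kb of a listed start of a coding gene, the MTF2 summit was 10th of 446 by score in replicate 1, 4th of 369 in replicate 2 and 35th of 2103 in replicate 3. In all, 75 regions of 3 libraries lay within 1 kb of a start. Ordered by the poorest of their 3 ranks, each taken as a percent of its list, MTF2 came 2nd, behind MRPL57, a gene for a mitochondrial ribosomal protein. The poorest rank of MTF2 stood at 6.58% of its list, against a median of 73.7% over the 75 regions. Its 3 summits spanned 88 bp, against a median of 148 bp. No other coding gene had an end within 70 kb of the region.

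**Figure D1:**
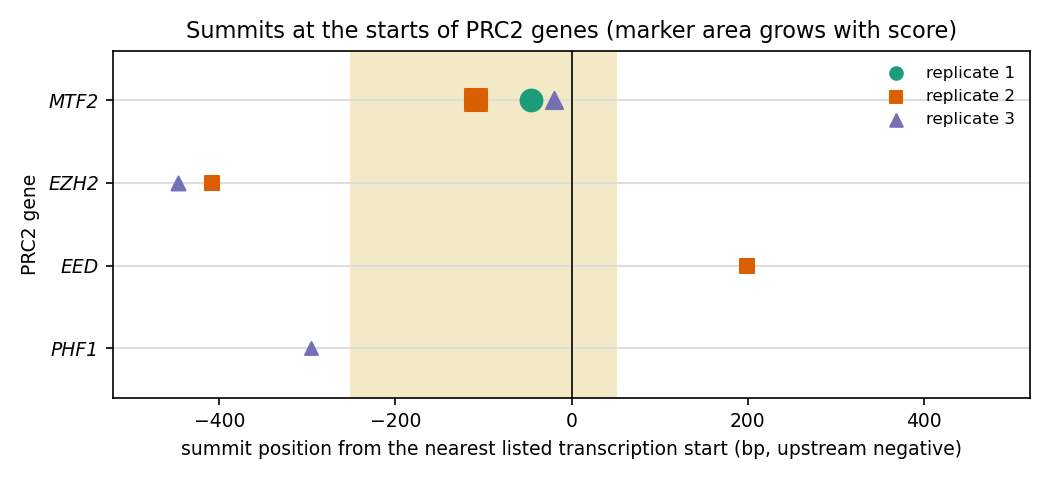
Position of each summit from the nearest listed transcription start of MTF2, EZH2, EED and PHF1 in bp, upstream negative, with 1 marker per library and an area that grows with the score. The shaded band is the 300-base promoter window, and only the 3 MTF2 summits, 20 to 108 bp upstream, lie in it.

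A further replicate 3 summit lay 41.0 kb past the other end of MTF2, at 93180079, with a score of 9.68. It was 166 bp inside CCDC18 and also inside TMED5, which overlap there. That summit is nearer to the ends of these genes than to MTF2, and no other library had a summit within 200 bp.

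EZH2, the main catalytic subunit in dividing cells, lies on the minus strand of chromosome 7 from 148807383 to 148884291. Replicate 2 had a summit at 148884699 and replicate 3 at 148884738, which is 408 and 447 bp upstream of the first listed start. Relative to a second listed start inside the gene they were 1214 and 1253 bp upstream. The scores were 7.31 and 6.05, with ranks of 491st of 1713 and 1657th of 4430, the top 28.7% and 37.4% of the lists. Replicate 1 had no summit nearer than 6413 kb, beside INSIG1. The EZH2 site thus rests on 2 libraries and scored above the median of each list.

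The 2 EZH2 summits lay 39 bp apart, against a median of 79.5 bp over the 254 regions of 2 libraries within 1 kb of a listed start. By the poorer of their ranks, the EZH2 region came 53rd of these 254. Of the summits within 1 kb of a start on either side, 49.1% in replicate 2 and 28.7% in replicate 3 lay upstream. Those as far upstream as EZH2 or farther, EZH2 included, were 5.15% and 4.04%. Summits more than 1 kb from a start were not counted. The EZH2 summits fell 158 and 197 bp beyond the window with the printed sequence. They lay between EZH2 and the long non-coding RNA gene LOC124901767, whose nearer end was 490 and 451 bp away. The nearest other coding gene, the ubiquitin ligase scaffold gene CUL1, was 83.6 kb away.

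EED, the subunit that reads methylated lysine 27 and stimulates the enzyme, lies on chromosome 11 from 86244753 to 86287615. Its 1 summit came from replicate 2, at 86244952, inside the gene and 199 bp past the start. The score was 5.72, with a rank of 815th of 1713. The nearest summit of replicate 3 was 176 kb away, inside PICALM, and that of replicate 1 was 513 kb away, inside PRSS23. PHF1, a second Polycomb-like gene, lies on chromosome 6 from 33410412 to 33416439. It had 1 summit, of replicate 3, at 33410718, which is 306 bp inside the lower gene end and 296 bp upstream of the listed start. The score of 4.42 ranked 3463rd of 4430, in the lower part of the list. An end of KIFC1, a kinesin gene, was 822 bp away. The sites at EED and PHF1 were each seen in 1 of the 3 libraries.

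PHF19, the third Polycomb-like gene, lies on the minus strand of chromosome 9 from 120855651 to 120904128. A region of all 3 libraries lay 12.6 to 12.7 kb below the lower gene end, at 120843014, 120842941 and 120842994 in replicates 1, 2 and 3. These summits were 92, 19 and 72 bp from an end of PSMD5, a proteasome assembly gene, and 61, 134 and 81 bp from an end of the pseudogene CUTALP. They were 25.9 to 26.0 kb from the nearer listed start of PHF19. The site thus lies between PSMD5 and CUTALP, with PSMD5 the nearest coding gene, and within 50 kb of PHF19. The scores were 26.5, 4.58 and 3.34, with ranks of 67th of 1368, 1278th of 1713 and 4275th of 4430. The libraries differed widely over it, with a rank at 4.90% of the list in replicate 1 and at 96.5% in replicate 3, unlike the MTF2 region.

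**Figure D2:**
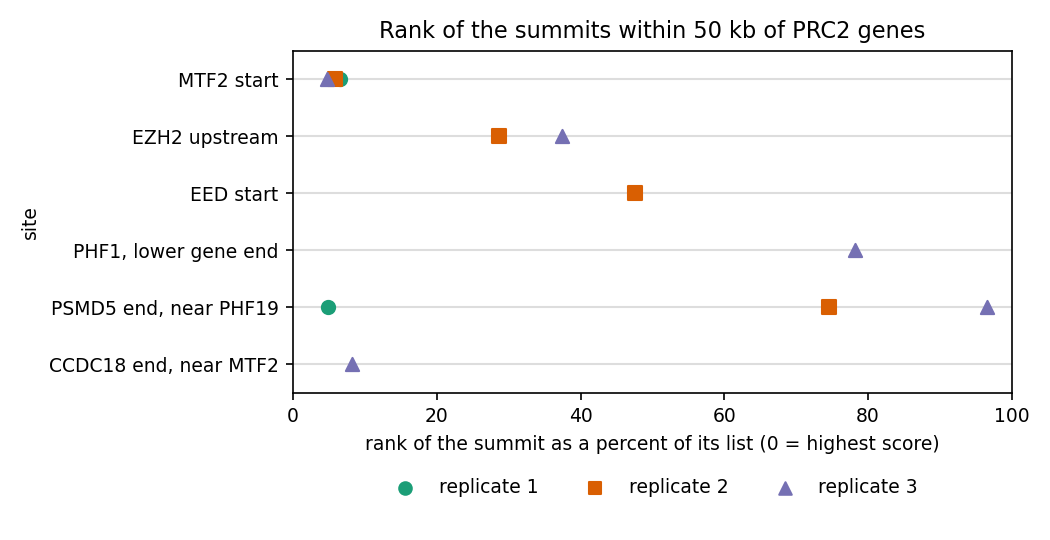
Rank of each of the 11 summits within 50 kb of a PRC2 gene, as a percent of its own list (x axis, 0 for the highest score), with 1 marker per library. The 3 MTF2 start summits lie together at 4.72% to 6.58%. The 3 summits at the PSMD5 end, near PHF19, are spread from 4.90% to 96.5%.

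The other 5 genes had no summit within 50 kb in any library. EZH1, the catalytic relative that is common in resting cells, came closest to that limit, with a replicate 3 summit 91.2 kb away inside RETREG3 and the nearest of replicates 1 and 2 at 489 and 507 kb. Of the 5 genes inside the limit, PHF19 had its nearest summit farthest away, at 12.6 kb, and the summit closest to the limit was that of MTF2 at 41.0 kb. RBBP4 had its nearest summits at 638, 488 and 132 kb in replicates 1, 2 and 3. SUZ12, the scaffold of the complex, had them at 2547, 485 and 2007 kb. JARID2, which helps the complex onto nucleosomes, had them at 1321, 1671 and 1322 kb, and AEBP2, a zinc finger subunit, at 3104, 1979 and 274 kb. All of these summits lay closer to another coding gene. At a distance of up to 50 kb, 5 of the 10 genes were reached by 1 or more libraries, compared with 35% of all coding genes. A missing summit says only that the authors' caller listed none.

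**Figure D3:**
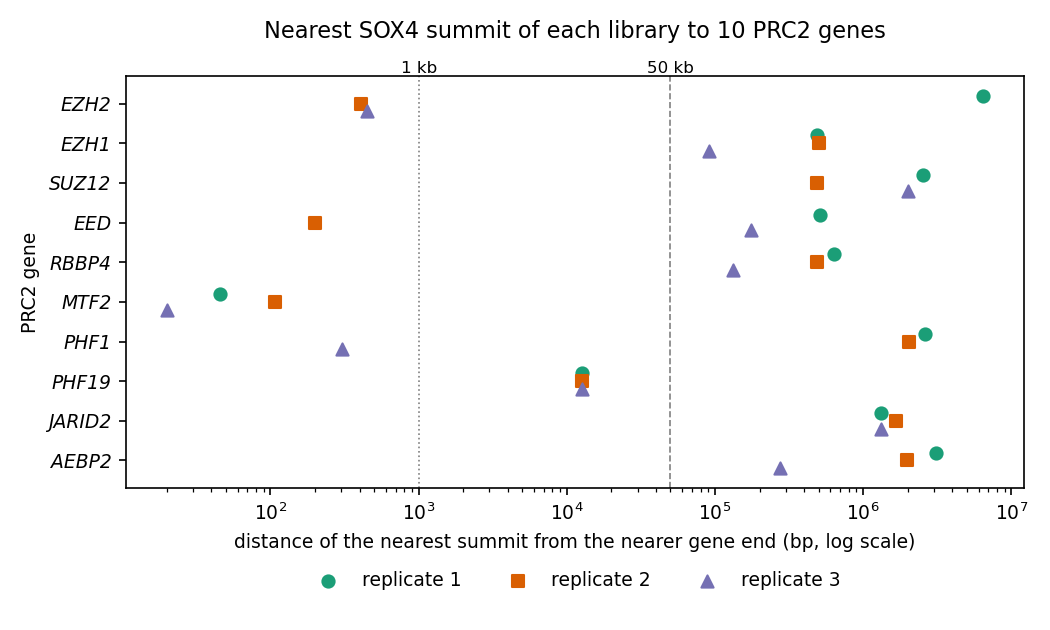
Distance in bp (log axis) from the nearer end of each PRC2 gene to the nearest summit of each library, with 1 marker per library and vertical lines at 1 and 50 kb. MTF2 has all 3 libraries within 108 bp, EZH2 has replicates 2 and 3 within 447 bp and replicate 1 at 6413 kb, and EZH1, SUZ12, RBBP4, JARID2 and AEBP2 have no library within 50 kb.

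By library, replicate 1 had a summit within 5 kb of MTF2 alone among the 10 genes, replicate 2 of EZH2, EED and MTF2, and replicate 3 of EZH2, MTF2 and PHF1. The same distance took in 4.6% of all coding genes in replicate 1, 4.53% in replicate 2 and 17.9% in replicate 3. Replicates 2 and 3 thus each gave 3 of the 10 genes, although the list of replicate 3 was the longer and reached more of all genes.

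The promoters were compared in the window of 300 bases from 250 before to 50 after each listed start. All 10 genes matched the RefSeq table, with 14 listed starts, among 22199 promoters of coding genes. Of 14 motifs searched on both strands, the SOX core ACAAAG was found at MTF2, at the second start of EZH2 and at the second start of JARID2, so in 3 of the 14 windows and 13.6% of all promoters. At MTF2 it is part of the longer AACAAAG, which 4.30% of all promoters hold and no other PRC2 promoter did. That match runs from 133 to 127 bp upstream of the start, and lay 81, 19 and 107 bp from the summits of replicates 1, 2 and 3. At EZH2 the match was 997 and 1036 bp from the summits of replicates 2 and 3. ACAATG was found in 2 of the 14 windows, at SUZ12 and JARID2, and in 8.17% of all promoters.

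Promoters with summits held SOX cores about as often as all promoters or less often. Of the 1033 promoters with a summit of any library inside the window, 10.5% held ACAAAG, 3.0% held AACAAAG and 5.61% held ACAATG, against the 13.6%, 4.30% and 8.17% of all promoters. Of the 148 promoters with summits of 2 or 3 libraries inside it, 12.8% held ACAAAG, 4.05% held AACAAAG and 8.78% held ACAATG, the last slightly above the share of all promoters. The shares were not adjusted for base composition. The median G+C was 67.0% with a summit of any library, 65.8% with 2 or 3 libraries and 62.3% over all promoters. A match is a description of the letters and no evidence of a bound site.

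The other motifs differed in how many PRC2 promoters held them. At least 1 of the 3 E2F forms was found in 5 of the 14 windows (at EZH1, EZH2, MTF2, PHF19 and SUZ12), and in 3.56% of all promoters. E2F proteins are cell cycle transcription factors. The EZH2 match, TTTGGCGC, began 1 bp past the start, and the MTF2 match, TTTCCCGC on the other strand, 5 bp past it. The NFY box CCAAT was found in 8 of the 14 windows, from 6 genes, and in 34.7% of promoters, with 4 copies at the first start of EZH2. The SP1 box GGGCGG was in 12 of the 14, from 8 genes, and in 56.3% of promoters. The ETS site CCGGAAG and the YY1 site AAGATGGC were found at PHF19, and the CRE site TGACGTCA and the TATA box TATAAA at JARID2, where TGACGTCA shares an end base with ACAATG and with ACAAAG. They were found in 12.8%, 3.53%, 2.26% and 9.47% of all promoters. The NRF1 palindrome and the AP-1 site TGANTCA, the second in 6.15% of promoters, were in none of the 14.

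The 14 PRC2 windows had a median of 71.2% G+C, against 62.3% over all promoters, and ranged from 52.3% at EED to 79.7% at PHF19. EED lay below the median of all promoters. MTF2 stood at 63.0%, with a ratio of observed to expected CpG of 0.941. EZH2 had 74.7% and 77.0% at its 2 starts, with ratios of 1.10 and 1.02. SUZ12, without a summit, had 73.0% and 1.00. Promoters with summits of 2 or 3 libraries had medians of 65.8% G+C and 0.936 for the CpG ratio, and all promoters had 62.3% and 0.737. The members with a summit thus overlapped in composition with those without, and PHF1 had the lowest CpG ratio of the 14 windows, at 0.533.

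**Figure D4:**
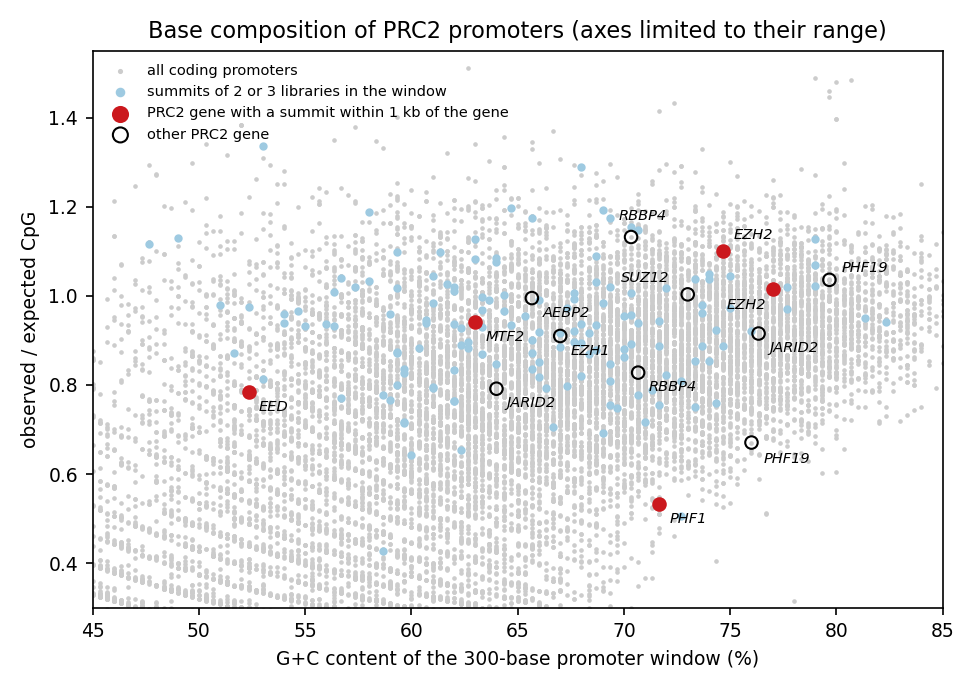
G+C content (x axis, %) and ratio of observed to expected CpG (y axis) of 300-base promoter windows, with the 14 PRC2 windows over those of the 22199 coding promoters that fall within the axes. EED at 52.3% G+C and EZH2 at 74.7% and 77.0% mark the range of the PRC2 genes with a summit within 1 kb (filled), which overlaps that of the others (open).

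The same counts were taken for 7 lists of genes that work with or against PRC2, 110 genes in all. Of these, 30 were within 5 kb of some summit (27.3%, compared with 20.4% of all coding genes) and 10 of a reproducible region (9.09%, against 3.47%). The 10 include NSD3 and ASH2L on chromosome 8. Outside that chromosome the shares of coding genes were lower, at 19.3% and 2.94%. None of the 5 further PRC2 genes, EPOP, LCOR, LCORL, EZHIP and RBBP7, was within 5 kb of a summit, and 1 of the 5 was within 50 kb. PRC1, the complex that reads and extends Polycomb silencing, had 7 of 29 genes with any summit and 2 with a reproducible region, BMI1 and PHC2. The BMI1 region lay 4.37 to 4.57 kb upstream of its start, nearer to an end of the read-through gene COMMD3-BMI1. Its summits ranked at 95.3% and 71.8% of the lists of replicates 2 and 3. The PHC2 region lay 281 and 354 bp upstream of a listed start inside the gene, with scores of 5.10 and 5.12 in replicates 2 and 3. The PR-DUB list, which removes ubiquitin from histone H2A, had 1 of 11 with a reproducible region, ASXL1, where replicates 1 and 2 had summits 233 and 282 bp upstream of the start with scores of 17.0 and 13.3, and replicate 3 had a separate summit 4 bp past the start.

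Genes that counter or border the lysine 27 mark had 2 of 9 with a reproducible region. At KDM6B, a lysine 27 demethylase gene, all 3 libraries contributed, scoring 17.3, 18.1 and 5.29, but the region lay 2.60 to 2.74 kb past a gene end and nearer to CYB5D1. At NSD3, a lysine 36 methyltransferase gene of chromosome 8, it was in replicates 1 and 3, 268 and 455 bp from an end of NSD3 and nearer to PLPP5, at 212 and 25 bp. These summits ranked at 36.6% and 98.0% of the lists of replicates 1 and 3. COMPASS, which methylates lysine 4, had 1 of 14, ASH2L, also on chromosome 8. SWI/SNF, a nucleosome remodeller that opposes Polycomb, had 11 of 21 genes with any summit, against 20.4% of all coding genes. It had 4 with a reproducible region, a share of 19%, against 3.47% of all coding genes. The share was 22.2% for the 9 genes that counter or border the mark. PBRM1 had summits of all 3 libraries within 133 bp of a listed start, with scores of 6.36, 5.18 and 11.5, and SMARCC1 had them in replicates 2 and 3 at 196 and 245 bp from a gene end. The region at ARID1B lay 189 kb from the nearer gene end, and that at PHF10 lay 1.93 to 2.06 kb past the gene and nearer to WDR27, at 187 and 52 bp in replicates 3 and 1. The partners of RBBP4 in other complexes had 1 of 21 with any summit, HDAC1, and 0 with a reproducible region. The HDAC1 summit, of replicate 3, lay 2.38 kb from a gene end and nearer to MARCKSL1, at 226 bp. It ranked at 80.7% of the list. Whether the lists differ from each other or from PRC2 was not tested.

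**Figure D5:**
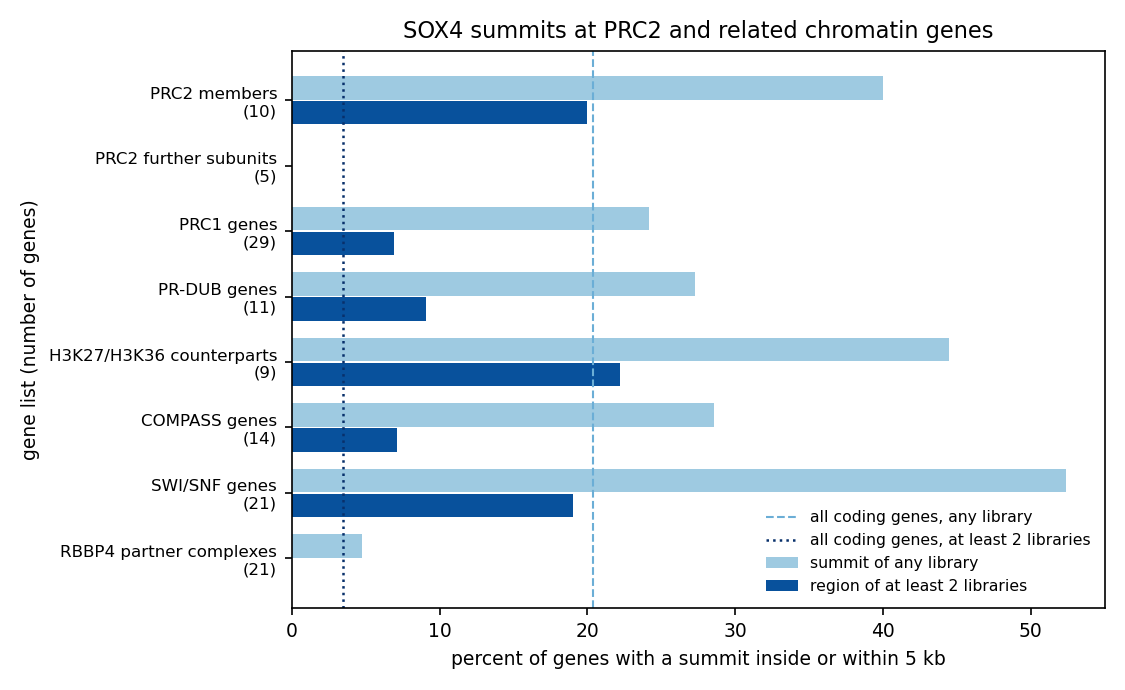
Percent of genes in each list (number of genes in brackets) with a summit of any library (light bars) or a region of at least 2 libraries (dark bars) inside the gene or within 5 kb, with lines at 20.4% and 3.47% for all coding genes. The 10 PRC2 genes stand at 40% and 20%, and the RBBP4 partners at 4.76% and 0.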

How the data were processed

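The tools named, without versions, per the submitters' processing notes are BWA, SAMtools and MACS2. The authors deposited 1 list of summits per library, with a −log10 score for each summit. Whether the score comes from a p-value or a q-value, and whether a control was used, is not given in the sources used here. The notes name hg19, but the lists use 41 contig names with KI270 identifiers of GRCh38. Genes and promoters came from RefSeq tables of GRCh38.p14, and starts were used for 15843 of 20037 coding genes; those of the other 4194, 715 of them on chromosome 8, were not used here. Distances are from the gene, or 0 inside it, and from listed starts. Counts were made with Python 3.11.15, numpy 2.4.6 and pandas 2.3.3, and the steps were tested on simulated summits. The members and lists were chosen with earlier results of these data known. The text names all 10 members, the listed genes with a reproducible region within 5 kb (up to 6 per list), and the coding gene at a summit where that is no member. Genes named beside them, and HDAC1, were chosen after their values were seen. No test was planned, since the 3 libraries form 1 group. Alternatives changed the libraries, score, distance, gene ends and sharing window.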

Additional observations from a re-analysis of the deposited data

How the results depend on the processing

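The counts of PRC2 genes with a summit of any library were 4 or 5 within 50 kb and 3 or 4 within 5 kb. This held under each change of libraries, score and gene ends. With the distance set to 1 or 10 kb instead, the count was 4, against 18.8% and 22.3% of all coding genes. The share of all coding genes moved more: within 50 kb it was 13.6% and within 5 kb 7.32% without replicate 3, 19.8% and 10.9% with summits at or above the median score, and 13.7% and 7.32% with the top 1000, against 35% and 20.4%. The count of PRC2 genes with a reproducible region, 2 in the report, was 1 to 2 with each library left out. MTF2 was counted each time, and EZH2 only without replicate 1. The share of all coding genes was 1.85%, 1.99% and 1.32% without replicates 1, 2 and 3, against 3.47%. The PRC2 count was 1 (MTF2) with the top 1000 summits of each list, where the replicate 3 summit of EZH2 is removed. It was 2 with summits at or above the median score. The shares of all coding genes were 1.49% and 1.53% in these 2 settings. The count with a summit in all libraries was 1 to 2 with a library left out, since without replicate 1 EZH2 counts too. The share of all coding genes rose as well, to 3.24%, 3.04% and 1.81% without replicates 1, 2 and 3, against 1.5%. The 10 related genes with a reproducible region numbered 4 to 6 with a library left out (KDM6B and PBRM1 each time), while the share of all coding genes was 1.85%, 1.99% and 1.32% without replicates 1, 2 and 3, against 3.47%. The related genes numbered 4 with summits at or above the median score, 4 with the top 1000 summits and 6 with a sharing window of 100 bp. Under these 3 settings the share of all coding genes fell too, to 1.53%, 1.49% and 2.43%, against 3.47%. Read on the strand of the gene alone, AACAAAG was found in 0 members and ACAATG in 1. Outside chromosome 8, chosen after the data were seen, the shares of all coding genes were 19.3% (any library, 5 kb), 2.94% (reproducible, 5 kb) and 33.6% (any library, 50 kb). No paired analysis was possible because the libraries form 1 group. Depth is unknown, so a missing summit sets no limit on binding.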
